A study of Mus musculus with 6 samples.

Results

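The genes described here are 42 genes of the skeletal muscle programme, measured in mouse embryonic fibroblasts (MEFs, connective tissue cells grown from embryos) with and without a functional Pax7 gene. They were taken by name: 19 regulators of muscle formation and 23 genes of the sarcomere, of calcium handling, of energy supply and of the nerve-muscle synapse, called structure genes below. All 42 had a probe set (a group of probes summarized to one signal) that named 1 gene, among 22180 such genes in all. Where a gene had more than 1 probe set, as for 5 of them, the one with the highest average signal across the arrays was kept. Wild type cells (Pax7+/+) and knockout cells (Pax7-/-) had 3 arrays each, numbered as biological replicates 1 to 3. Both genotypes had the F1 background C57Bl6N x 129Sv and were grown to confluence in DMEM with serum; the labels name no treatment to form muscle. The sample titles name fibroblasts, whereas the cell type field reads ESCs (embryonic stem cells). The labels state neither the embryo or culture behind each number nor the missing part of Pax7, so p-values measure the spread between these 6 samples. Signals are on the log2 scale, and differences are knockout minus wild type.

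Skeletal muscle forms when progenitors that carry Pax3 or Pax7 switch on the basic helix-loop-helix factors Myf5, Myod1, Myog and Myf6. These bind E-boxes and, together with the MADS-box factors of the Mef2 family and the Six-class homeobox factors with their Eya coactivators, switch on the genes of the contractile apparatus. Myod1 is best known for turning fibroblasts into muscle when supplied to them, while fibroblasts themselves normally do not run this programme. Sarcomeric actin genes are also controlled by serum response factor, which binds the CArG box and is active in cultured fibroblasts.

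The regulatory sequences closest to these genes are shown for 5 members whose signals carry the patterns below: both sarcomeric actins, both forms of troponin C, and myogenin. They are the 250 bases before the transcription start in RefSeq, build GRCm38.p6, read 5′ to 3′ on the gene's strand at chr8:123894776-123895025 (minus strand) for Acta1, chr2:114052876-114053125 (minus strand) for Actc1, chr14:31208062-31208311 (plus strand) for Tnnc1, chr2:164779735-164779984 (minus strand) for Tnnc2 and chr1:134289754-134290003 (plus strand) for Myog. Capitals mark E-boxes (CANNTG) and CArG boxes (CCWWWWWWGG, where W is A or T), searched on both strands.
Acta1: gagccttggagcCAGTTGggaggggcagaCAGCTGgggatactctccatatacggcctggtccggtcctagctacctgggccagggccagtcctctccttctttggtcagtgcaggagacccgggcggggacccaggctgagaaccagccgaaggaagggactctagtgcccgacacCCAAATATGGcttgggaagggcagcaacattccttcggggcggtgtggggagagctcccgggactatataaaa
Actc1: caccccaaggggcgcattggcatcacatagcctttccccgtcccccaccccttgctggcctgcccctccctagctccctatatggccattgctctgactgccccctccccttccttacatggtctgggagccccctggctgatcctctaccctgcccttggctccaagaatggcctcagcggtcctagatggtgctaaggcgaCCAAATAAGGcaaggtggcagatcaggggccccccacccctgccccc
Tnnc1: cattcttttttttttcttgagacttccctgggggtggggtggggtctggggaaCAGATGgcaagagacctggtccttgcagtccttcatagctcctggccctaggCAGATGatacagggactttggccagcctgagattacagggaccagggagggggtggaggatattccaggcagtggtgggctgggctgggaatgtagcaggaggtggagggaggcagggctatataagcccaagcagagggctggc
Tnnc2: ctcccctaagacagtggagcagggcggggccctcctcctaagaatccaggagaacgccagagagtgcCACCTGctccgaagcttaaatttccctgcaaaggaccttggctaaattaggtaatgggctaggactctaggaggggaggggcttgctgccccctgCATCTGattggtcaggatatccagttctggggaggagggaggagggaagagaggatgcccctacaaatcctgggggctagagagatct
Myog: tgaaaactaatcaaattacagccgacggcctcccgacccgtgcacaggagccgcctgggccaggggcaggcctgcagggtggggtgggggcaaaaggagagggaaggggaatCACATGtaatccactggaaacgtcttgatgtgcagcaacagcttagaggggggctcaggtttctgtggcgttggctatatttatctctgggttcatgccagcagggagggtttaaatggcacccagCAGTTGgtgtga
Acta1 and Actc1 each held 1 exact match to the CArG box, the first 73 to 64 bases and the second 47 to 38 bases before the start. Boxes that depart from the pattern were not counted. Of the 32 members in the RefSeq promoter table these were the only ones with that motif, which 1.62% of 27025 genes held. E-boxes were found in 17 of 20 structure genes and 6 of 12 regulators, against 69.3% of all genes. An exact match to the consensus Mef2 site (YTAWWWWTAR, where Y is C or T and R is A or G) was found in 3 of the 20 structure genes (Casq2, Myh8 and Ttn). Of the 12 regulators 1 had it (Meox2), against 3.42% of all genes. The stretch ctatatttat in the Myog sequence departs from this pattern in its last base only and was not counted. A match describes these letters and not a site in use.

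The 6 arrays fell apart by replicate number. The replicate 3 arrays of both genotypes correlated at 0.79 to 0.82 with the other 4, and these at 0.98 to 0.99 among themselves. As the table holds no detection calls, a background level was set on each array below which 95% of 1394 odorant and pheromone receptor genes lay, at 5.33 to 5.44 on replicates 1 and 2 and 4.63 to 4.65 on replicate 3. The probe set kept for Pax7 itself was above background on all 6 arrays, with a difference of 0.16 (limma SE 0.44). Where its probes lie against the missing part is not stated, so it does not check the genotype. Over all genes, 37.9% lay above background on all 6 arrays. Of the fibroblast markers 8 of 9 did (all but Lum) and of the smooth muscle markers 7 of 8 (all but Myocd). Of the satellite cell markers 7 of 9 did, Pax7 itself among them, but not the myogenic factors Myf5 and Myod1. Those 7 had their highest mean signals in Ncam1 and Sdc4 (9.99 and 8.81). Their lowest, near the background levels, were those of Pax3, Pax7 and Cdh15 (5.80, 5.64 and 5.53). Of the cardiac muscle markers 4 of 9 lay above background on all 6 arrays. Of the myotube markers 1 of 8 did (Tnnt3), and Myh3, Mylpf and Mymk were above it on no array. Of the embryonic stem cell markers 1 of 9 did (Pou5f1), and 6 were above it on no array. The satellite cell list shares Myf5, Myod1 and Cdh15 with the members, and all myotube markers but Mymk are members. The mean signal of the fibroblast markers ran from 8.97 to 9.83 over wild type arrays and from 8.48 to 9.29 over knockout arrays (median difference -0.36), that of the smooth muscle markers from 8.29 to 8.83 and from 8.27 to 8.83, and that of the myotube markers from 4.41 to 5.14 and from 4.49 to 5.19. The shift in fibroblast markers was uneven. It was largest for Dcn (-1.93) and Lum (-1.16) and small for Col1a1 (-0.06), Col1a2 (-0.11) and Thy1 (-0.12), while Fn1 was higher (0.14). The part of this shift in the results below was not tested. In bulk samples, fewer cells of a type and less RNA per cell cannot be told apart.

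Of the 19 regulators, 7 lay above background on all 6 arrays: Eya1, Eya2, Mef2a, Mef2d, Met, Itm2a and Cdh15. Of the 23 structure genes, 10 did: Acta1, Myl4, Tnnt1, Tnnt2, Tnnt3, Tnnc1, Tnnc2, Tnni1, Chrng and Ryr1. This share was close to that of all genes, of which 37.9% lay above background on all 6 arrays. Not above background on any array were Myf5, Myf6 and Lbx1 among regulators and Myh3, Myh8, Mylpf and Ttn among structure genes, 7 of 42 members against 34.9% of all genes. The other members crossed the level on some arrays. With the level at the 99th percentile of those receptor genes, Eya1, Mef2a, Mef2d and Itm2a remained above it on all 6 arrays among regulators, and Acta1, Tnnt3 and Tnnc1 among structure genes, where 13.0% of all genes did. With the 90th percentile, 15 regulators and 16 structure genes did, against 54.4%. Myod1 and Myog were among the regulators that passed on all 6 arrays at the 90th percentile but not at the 95th.

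**Figure D1:**
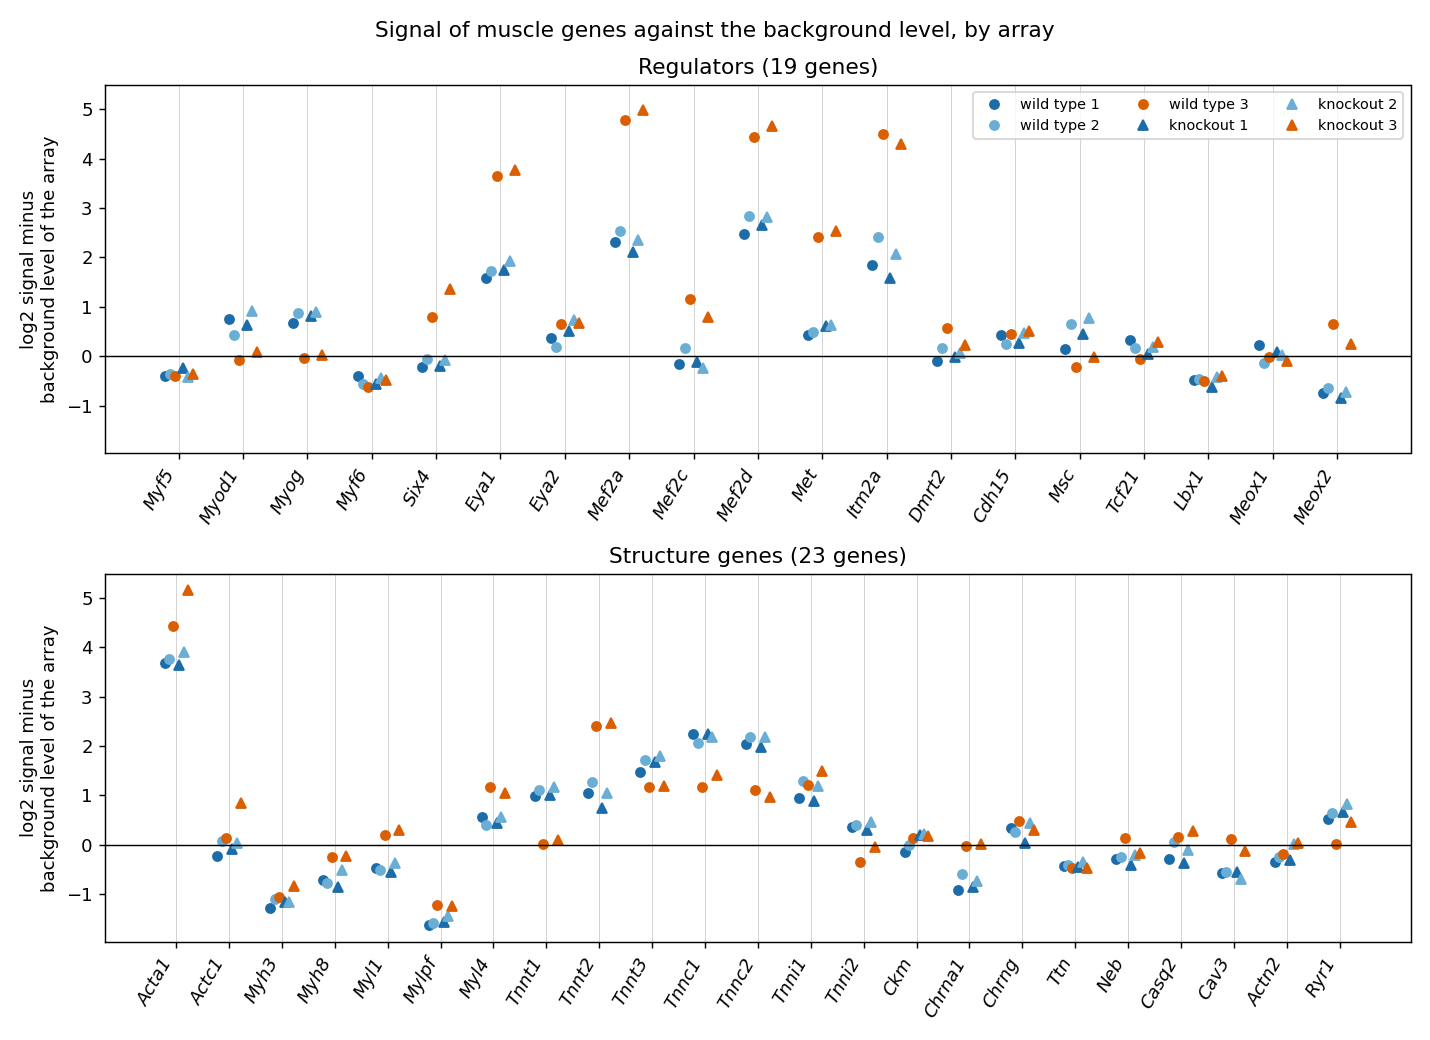
Log2 signal minus the background level of the same array (vertical axis) for the 19 regulators and the 23 structure genes, with circles for wild type, triangles for knockout and orange for replicate 3. Acta1, Mef2a, Mef2d, Itm2a and Eya1 lie above the line on every array, while Myf5, Myf6, Lbx1, Myh3, Myh8, Mylpf and Ttn lie below it on every array.

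No member passed the threshold for a difference between the genotypes in the test over all genes. In the limma fit with genotype alone, 0 of 42 members passed an adjusted p of 0.05, as did 0 of 22180 genes (0%). At an unadjusted p under 0.05 were 15 genes and no member. That fit carries the replicate 3 difference in its error (median SE over members 0.31, against 0.099 with the block), so its 0 says little. With the replicate number as a block, 0 members passed, against 17 genes in all (0.0766%). The smallest adjusted p of a member was then 0.600, for Itm2a. At an unadjusted p under 0.05 with the block were 4 members, Itm2a and Mef2c as lower and Msc and Ryr1 as higher, against 6.73% of all genes. The 95% intervals of the members' differences ran between -0.50 and 0.58 with the block and between -1.99 and 1.81 without it.

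The regulators had a median difference of 0.03 and the structure genes one of 0.05 beside -0.0018 for all genes. The single differences ran from -0.28 to 0.23 for regulators and from -0.17 to 0.27 for structure genes. The 3 pairs gave medians of 0.00, 0.03 and 0.08 for regulators and -0.03, 0.09 and 0.03 for structure genes, so the sign for structure genes differed between pairs. The SD of the 3 pair medians was 0.04 for regulators and 0.06 for structure genes, larger than the medians themselves. No member had knockout arrays all above or all below the wild type arrays, which 0.667% and 0.744% of all genes had. Higher in all 3 pairs were Myog, Eya1, Met, Msc, Tnnt1, Ckm, Actn2 and Ryr1, 8 of 42 members against 13.8% of all genes. Lower in all 3 pairs were Itm2a and Meox2, against 13.8% as well.

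**Figure D2:**
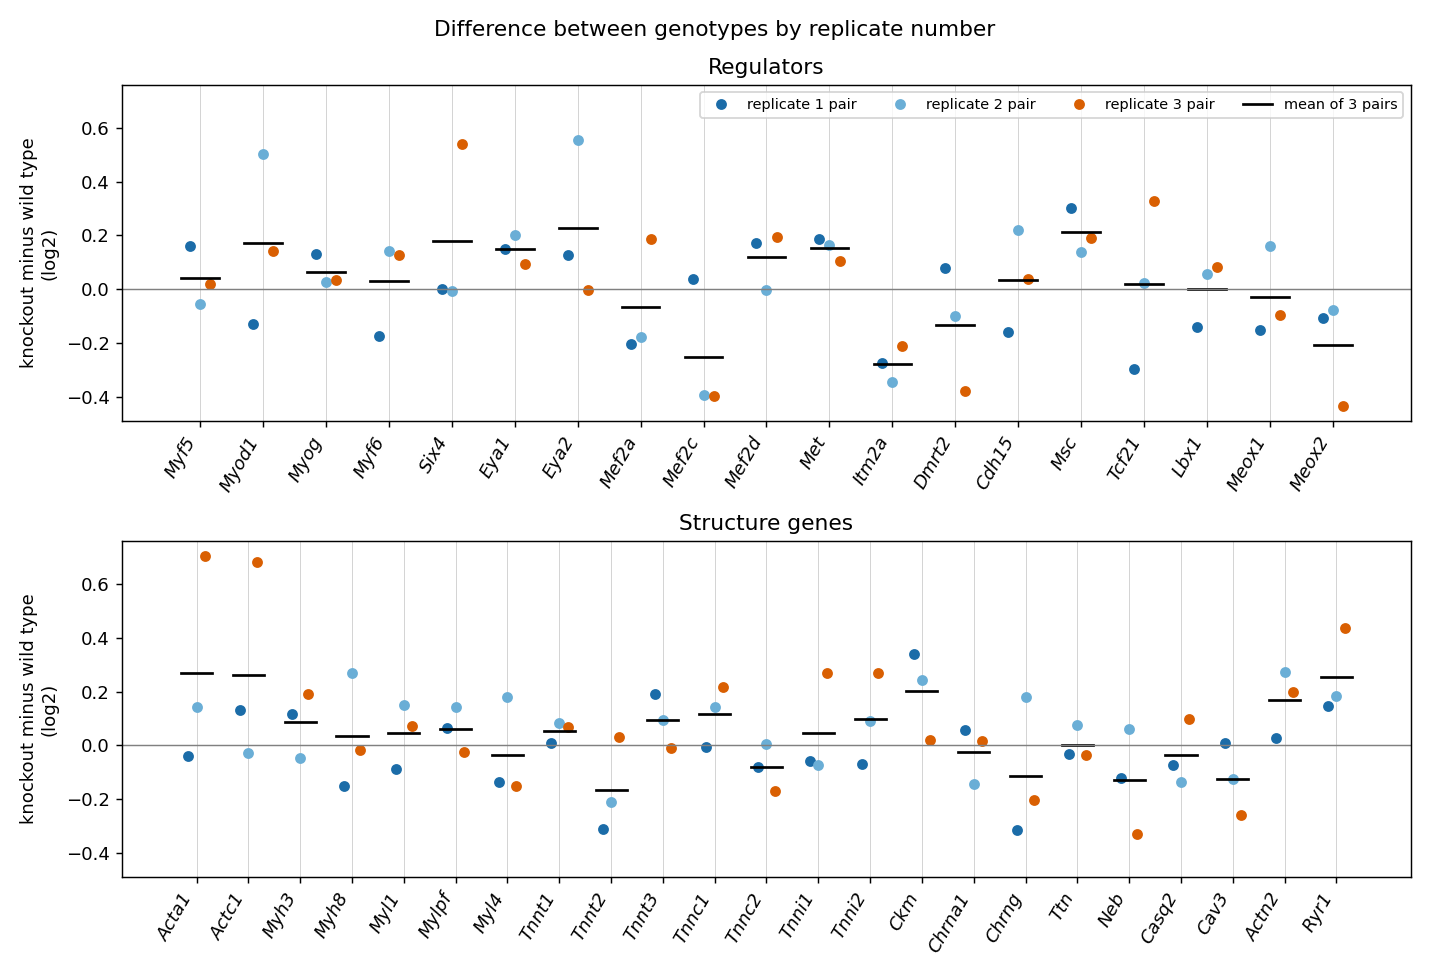
Difference in log2 signal, knockout minus wild type, for each member (vertical axis) in the replicate 1, 2 and 3 pairs (points) with the mean of the 3 pairs (black bars). Points lie on both sides of 0 in both lists, and the highest are the replicate 3 pairs of Acta1 (0.70) and Actc1 (0.68).

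Among the 4 myogenic basic helix-loop-helix factors, Myf5, which acts first in the embryo, gave signals of 5.04, 4.98 and 4.25 on the wild type arrays (replicates 1, 2 and 3 in this order, here and below) and 5.20, 4.93 and 4.27 on the knockout arrays. Myf6, which acts late, gave 5.03, 4.76 and 4.02 and then 4.86, 4.90 and 4.15. Both stayed below background on every array in both genotypes, so no fold is given. Myod1, the determination factor, gave 6.18, 5.76 and 4.58 in wild type and 6.05, 6.26 and 4.72 in the knockout. On replicates 1 and 2 these signals were 0.43 to 0.92 above background, and on replicate 3 they were at -0.07 and 0.09 of it. The knockout minus wild type difference of Myod1 was 0.17 (SD over 3 pairs 0.32; limma SE 0.12 with the block; adjusted p = 0.852). Myog, which drives differentiation, behaved alike, with 6.11, 6.20 and 4.62 in wild type and 6.24, 6.23 and 4.66 in the knockout. Its difference was 0.07 (SD 0.06, 95% interval -0.14 to 0.27 with the block). Myog was higher in the knockout in all 3 pairs, by 0.13, 0.03 and 0.04, and the other 3 factors had pairs of both signs. Both replicate 3 arrays were below the other 4 for all 4 factors, a step larger than any of these differences, so the ranges of the genotypes overlap whatever the pairs show.

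Of the homeobox factors and Eya cofactors, Eya1 gave 7.02, 7.06 and 8.30 in wild type and 7.17, 7.27 and 8.39 in the knockout. The knockout was the higher array in each pair, by 0.15 on average (SD 0.05; limma SE 0.09 with the block; adjusted p = 0.809), and the genotypes overlapped. Eya2 gave 5.82, 5.53 and 5.30 against 5.95, 6.08 and 5.30, a difference of 0.23 (SD 0.29) that rested on the replicate 2 pair, at 0.56. Six4, a homeobox factor of muscle precursors, was above background only on the replicate 3 arrays, at 5.45 in wild type and 5.99 in the knockout.

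Of the Mef2 factors, which act with the myogenic factors and are also found outside muscle, Mef2a gave 7.75, 7.88 and 9.42 in wild type and 7.54, 7.70 and 9.61 in the knockout. Its difference was -0.06 (SD 0.22), with opposite signs in the replicate 3 pair and the others. Mef2d gave 7.91, 8.17 and 9.09 against 8.08, 8.16 and 9.29, a difference of 0.12 (SD 0.11). Both were well above background on every array, and their replicate 3 arrays were the highest in each genotype. Mef2c, needed for heart and skeletal muscle, lay near background, above it on 3 of 6 arrays (5.29, 5.50 and 5.81 against 5.32, 5.11 and 5.41). Its difference was -0.25 (SD 0.25; unadjusted p = 0.0491 and adjusted p = 0.739 in the limma fit with the block).

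Itm2a, a membrane protein found in developing muscle and cartilage, was lower in the knockout in all 3 pairs. It gave 7.28, 7.75 and 9.14 in wild type and 7.01, 7.41 and 8.93 in the knockout. The pairs differed by -0.27, -0.34 and -0.21, a mean of -0.28 (SD 0.07, limma SE 0.09 with the block and 0.69 without; 1.21-fold). The ranges of the genotypes overlapped, because the step from replicates 1 and 2 to replicate 3 was 1.67. Met, the receptor for hepatocyte growth factor that migrating muscle precursors need, gave 5.86, 5.82 and 7.06 against 6.05, 5.98 and 7.16. It was higher in each knockout array of a pair, by 0.15 on average (SD 0.04, adjusted p = 0.808 with the block in limma). Msc (musculin), a repressor of the same helix-loop-helix class, gave 5.58, 5.98 and 4.42 against 5.88, 6.12 and 4.61. This was a difference of 0.21 (SD 0.08; adjusted p = 0.727 with the block in limma), with both replicate 3 arrays below background. The other probe set of Msc was not above background on any array and differed by 0.02.

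The remaining regulators lay near or below background. Cdh15, the cadherin of myoblasts and satellite cells, gave 5.86, 5.59 and 5.10 in wild type and 5.70, 5.81 and 5.14 in the knockout, between 0.25 and 0.51 above background, with a difference of 0.03 (SD 0.19). Tcf21, a factor of facial muscle and of mesenchyme, gave 5.76, 5.51 and 4.60 against 5.47, 5.53 and 4.93, and its 3 pairs had differences of -0.30, 0.02 and 0.33. Dmrt2, a factor of the dermomyotome, gave 5.34, 5.51 and 5.22 against 5.42, 5.41 and 4.85, a difference of -0.13 (SD 0.23). Lbx1, the homeobox factor of migrating limb muscle precursors, stayed below background on every array. The somite factors Meox1 and Meox2 were above it on 3 and 2 of 6 arrays, Meox2 only on replicate 3.

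Acta1, the skeletal muscle actin, lay 3.64 to 5.15 above the background of its arrays. Its signals were 9.11, 9.10 and 9.08 in wild type and 9.07, 9.24 and 9.78 in the knockout. On the deposited scale the wild type arrays thus lay close together (SD 0.02), and the knockout arrays spread upward from the same level. Above the background of their own arrays the wild type signals lay less close, at 3.67, 3.77 and 4.43. The pairs differed by -0.04, 0.14 and 0.70, a mean of 0.27 (SD 0.39, limma SE 0.14 with the block, adjusted p = 0.784; 1.20-fold). Without the replicate 3 pair the difference was 0.05. Actc1, the cardiac actin that embryonic skeletal muscle also uses, gave 5.21, 5.41 and 4.79 against 5.35, 5.38 and 5.48, close to background on all arrays but the last. Its pairs differed by 0.13, -0.03 and 0.68, and without the replicate 3 pair the difference was 0.05. The differences of both actins therefore rested on the same pair of arrays, and 1 pair allows no test. Six4 and Ryr1, among others, also had their largest difference in that pair (0.54 and 0.44). Meox2, Mef2c and Dmrt2, among others, had theirs there in the other direction (-0.43, -0.40 and -0.38). The median of that pair over the 42 members was 0.05, beside 0.0013 for all genes, so the actins do not stand for the list.

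The troponins, which make actin filaments respond to calcium, were above background on all 6 arrays for 6 of 7 members, against 37.9% of all genes. With the level at the 99th percentile, only Tnnt3 and Tnnc1 of them remained above it on all 6 arrays. Tnnc1, troponin C of slow and cardiac muscle, gave 7.68, 7.39 and 5.82 in wild type and 7.67, 7.53 and 6.04 in the knockout. Tnnc2, troponin C of fast muscle, gave 7.49, 7.51 and 5.76 against 7.41, 7.52 and 5.59. The differences were 0.12 (SD 0.11) for Tnnc1 and -0.08 (SD 0.09) for Tnnc2, both small against a step of -1.64 and -1.81 from replicates 1 and 2 to replicate 3. Tnnt3, the fast form of the tropomyosin-binding subunit, gave 6.91, 7.06 and 5.83 against 7.10, 7.15 and 5.82, with a difference of 0.09 (SD 0.10). Tnnt1, the slow form, gave 6.42, 6.43 and 4.66 against 6.43, 6.52 and 4.72, and was 0.01 and 0.10 above background on the replicate 3 arrays. Tnnt2, the cardiac form, which embryonic skeletal muscle uses as well, was higher on replicate 3 as deposited, though not after quantile normalization (steps of 0.66 and -0.12). It gave 6.49, 6.60 and 7.06 against 6.17, 6.39 and 7.09, a difference of -0.17 (SD 0.18; limma SE 0.10 with the block; adjusted p = 0.809). Of the inhibitory subunits, Tnni1 (slow) gave 6.38, 6.62 and 5.86 against 6.32, 6.54 and 6.13. Tnni2 (fast) gave 5.80, 5.73 and 4.31 against 5.73, 5.81 and 4.58, with replicate 3 below background. Of the 7 troponins, Tnnt1 was higher in the knockout in all 3 pairs, by 0.05 on average (SD 0.04), and the others had pairs of both signs.

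Of the 5 myosin genes among the members, Myl4, the light chain of embryonic muscle and atrium, was above background on all 6 arrays, at 6.01, 5.73 and 5.82 in wild type and 5.87, 5.91 and 5.67 in the knockout. The heavy chains Myh3 (embryonic) and Myh8 (perinatal) and the fast light chain Mylpf were below it on every array, at 3.40 to 4.84, and Myl1 was above it only on replicate 3. The giant proteins Ttn and Neb, the disc protein Actn2, the calcium store protein Casq2, the muscle caveolin Cav3 and the receptor subunit Chrna1 were above background on 0 to 3 arrays, and no size is given for them.

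Ryr1, the calcium release channel of skeletal muscle, gave 5.96, 5.98 and 4.66 in wild type and 6.10, 6.16 and 5.10 in the knockout. It was higher in each pair, by 0.15, 0.19 and 0.44, a mean of 0.26 (SD 0.16; unadjusted p = 0.0282 and adjusted p = 0.685 in the limma fit with the block; 1.19-fold). On replicate 3 the probe set kept was 0.01 above background in wild type and 0.47 above it in the knockout. The other probe set of Ryr1, above background on 4 arrays, differed by -0.05. Ckm, the creatine kinase of muscle, gave 5.30, 5.33 and 4.78 against 5.64, 5.57 and 4.80, a difference of 0.20 (SD 0.16). Its other probe set, also above background on 4 arrays, differed by -0.19. For both genes the probe sets thus disagreed in sign, and the higher values in the knockout belong to the probe set kept. Chrng, the fetal subunit of the acetylcholine receptor, gave 5.78, 5.60 and 5.14 against 5.47, 5.78 and 4.93, a difference of -0.11 (SD 0.26).

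Most members differed more between replicate 3 and the other arrays than between the genotypes, a description made after the data were seen. Both replicate 3 arrays lay below the other 4 for 16 of 23 structure genes and 11 of 19 regulators, against 46.7% of all genes. They lay above the other 4 for Tnnt2 among structure genes (which overlapped after quantile normalization) and for 7 regulators (Six4, Eya1, Mef2a, Mef2d, Met, Itm2a and Meox2), against 39.9% of all genes. The members' medians of replicate 3 minus the others were -0.47 for structure genes and -0.54 for regulators, beside -0.11 for all genes and -0.22 for the receptor genes. The background level itself stepped by -0.75, and the counts include the 7 members below it on every array. With each array's background level taken off, replicate 3 was below the other 4 for 3 regulators (Myod1, Myog and Msc) and 7 structure genes (Tnnt1, Tnnt3, Tnnc1, Tnnc2, Tnni2, Ryr1 and Ttn, the last not above background on any array), against 12% of all genes. It was then above the rest for 9 regulators and 12 structure genes, against 70%. Myf5, at -0.40, -0.35 and -0.40 from background in wild type, Cdh15 and Chrng were no longer below. As deposited, the steps ran from -1.81 (Tnnc2) to 0.66 (Tnnt2) among structure genes and from -1.56 (Myog) to 1.80 (Mef2a) among regulators.

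These steps depend in part on how the arrays are scaled to each other, which differs between replicate 3 and the rest in the spread of all signals (interquartile ranges of 2.52 and 2.56 against 1.88 to 1.94). After quantile normalization Mef2a was still higher on replicate 3, by 0.78, and Itm2a by 0.57. Eya1 and Mef2d then overlapped, with steps of 0.09 and 0.04. The steps of Tnnc1 and Tnnc2 were then -2.14 and -2.22, that of Tnnt1 -1.82, that of Tnnt3 -1.68, that of Myog -1.55 and that of Myod1 -1.37. Replicate 3 was above the rest for 6 regulators and 2 structure genes and below for 10 and 15 (34.2% and 41.6% of all genes). After centring it was above for 8 and 4 and below for 9 and 12 (50% and 31.2%), where the median of all genes moved from -0.11 to 0.17. The step of Acta1 changed sign with the scaling, from 0.30 as deposited to -0.63 after quantile normalization and 0.58 after centring on the median, as did that of Tnnt2 (0.66, -0.12 and 0.94). Smaller steps of Actc1, Myh8, Myl1, Myl4 and Cav3 changed sign as well. Both replicate 3 arrays stayed below the other 4 under all 3 scalings for Tnnc1, Tnnc2, Tnnt1, Tnnt3, Tnni2, Myod1, Myog and Msc, among others. The part that cell culture, RNA or array handling has in this step was not tested.

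**Figure D3:**
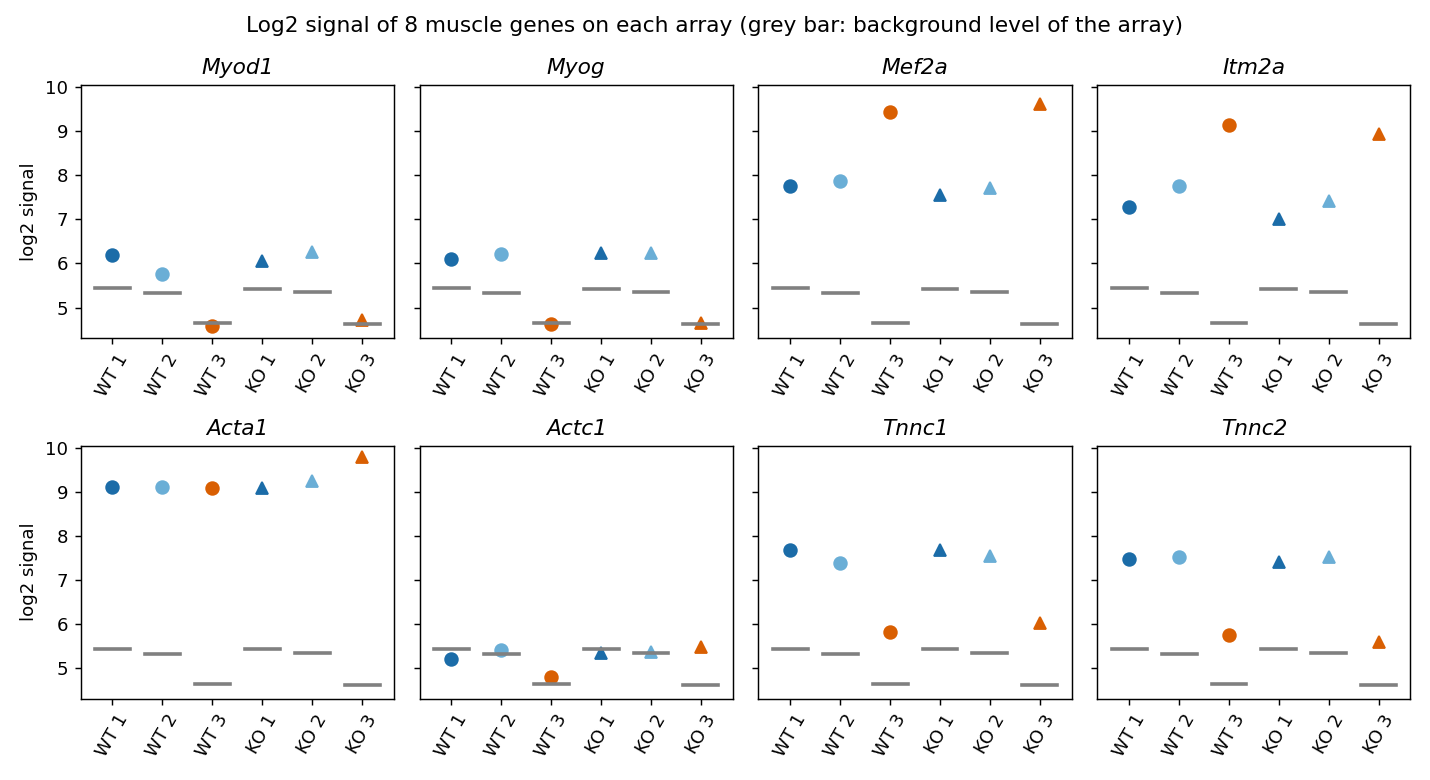
Log2 signal (vertical axis) of 8 members on the 3 wild type (WT, circles) and 3 knockout (KO, triangles) arrays, with the background level of each array as a grey bar. Within replicate numbers the genotypes mostly lie close together, but Myod1 on replicate 2 is at 5.76 in wild type and 6.26 in the knockout. Acta1 and Actc1 are higher on knockout replicate 3 than on wild type replicate 3. Replicate 3 (orange) is higher for Mef2a and Itm2a, lower for Tnnc1 and Tnnc2, and at background for Myod1 and Myog.

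Further genes of the muscle programme, 93 with a probe set of their own, were counted in the same fits. They covered fusion factors, inhibitors of the myogenic factors, other sarcomere proteins and the sarcoglycan complex. The list also held regulators that act outside muscle, such as Srf, Rbpj, Tcf3 and Hdac5, so its counts do not describe muscle-restricted genes alone. Of the 93 genes, 48 lay above background on all 6 arrays and 18 on none, against 37.9% and 34.9% of all genes, and their median difference was 0.01. Srf, Rbpj, Tcf3 and Hdac5 were among the 48. Of the sarcomere proteins, Tcap and Xirp1 were among the 48, and Mybpc2 and Myom2 among the 18. The fast myosin heavy chain Myh2 was above background on all 6 arrays too, but only just. On knockout replicate 1 its signal was 5.4306 and the background level 5.4297. The myosin heavy chains Myh1 and Myh4 were not above background on any array. None of the 93 passed in either direction in limma without the block or with it. At an unadjusted p under 0.05 were 1 of 93 without the block and 14 of 93 with it, against 0.0676% and 6.73% of all genes. The smallest adjusted p with the block was 0.142, for the cell cycle inhibitor Cdkn1c (named after its value was seen). When the replicate 1 pair was left out under the block, 1 passed, the receptor Cdon, which promotes myogenic differentiation (-0.80, SE 0.13, limma adjusted p = 0.00432). In that fit 98 genes passed in all. None of the 93 passed when the replicate 2 or the replicate 3 pair was left out instead. With all pairs Cdon, also named after its value was seen, differed by -0.60 (SE 0.13, limma adjusted p = 0.258 with the block). The 4 named by their mean signal were the tropomyosins Tpm1 (0.04, SE 0.09 with the block) and Tpm3 (-0.11, SE 0.10), the growth factor Igf2 (-0.14, SE 0.09) and the activin and myostatin antagonist Fst. Fst gave 9.27, 9.54 and 10.61 on the wild type arrays, and 8.94, 8.99 and 10.05 on the knockout arrays. It differed by -0.48 (SE 0.09, limma adjusted p = 0.184 with the block). The fusion factor Mymk, which muscle cells need to join, was not above background on any array.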

How the data were processed

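RNA from 6 MEF samples (3 per genotype) was hybridised to Affymetrix arrays. The authors deposited log2 values for each probe set, for which the submitters' processing notes name Partek and RMA. No source used here gives their versions, settings or build, and the log base was read from the values. RMA corrects background, normalizes arrays to each other and summarizes probes. The deposited values still differed in spread, with interquartile ranges of 2.52 and 2.56 on replicate 3 against 1.88 to 1.94 on the other arrays. The 6 arrays thus do not share a common scale, and how they were normalized to each other is not stated. No depth applies, and the number of arrays limits the precision. Of 41345 probe sets, 23521 named 1 gene in the platform annotation, 1814 several and 16010 were not listed; 1 was kept per gene. A limma model (limma 3.58.1, R 4.3.3) with a genotype term was fitted to all 22180 genes by lmFit and moderated by eBayes, with tests for either direction, Benjamini-Hochberg adjustment over all genes and a threshold of 0.05. SEs are limma's. The code was tested on simulated data that kept the replicate effects of these arrays. Without the block, 0 of 100 genes with a log2 change of 1 and 0 of 100 with a change of 2 were called. With the block 98 and 100 were called, and there were 6 false calls. The fit without the block could therefore hardly call a gene at these sizes.

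The members and lists were chosen with earlier results of these data known. Full values are given for members above background on at least 4 of 6 arrays, for Myf5, Myod1, Myog and Myf6, and for any past the threshold (there were 0); Mef2c and Six4 are given beyond this rule, chosen after their values were seen. Of the further muscle genes the rule names the 4 with the highest mean signal. Equal replicate numbers deviated together from their genotype's mean (correlations of 0.92, 0.90 and 0.97, all above 0.1), so a second fit had the number as a replicate block. Replicates 1 and 2 also correlated across numbers (0.91 and 0.90), so this pairing rests on replicate 3 and on the data, not on a label. No positions on the array are given because its build is not stated. Alternatives were a batch term for replicate 3, quantile normalization, median centring, a filter on dim genes, the mean of probe sets, other background percentiles and leaving out arrays or pairs.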

Additional observations from a re-analysis of the deposited data

How the results depend on the processing

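No member passed under any alternative. Of these only the replicate block, the batch block and the pairs left out under the block bear on this. The fits without a block carry the replicate 3 difference in their error (median SE over members 0.31, against 0.099 with the block), so that their 0 says nothing about stability. Over all genes, limma called 0 without a block, 17 with the replicate block and 19 with the batch block, and 2 to 98 with the block when a replicate number was left out. Over all settings that leave out an array or a pair the count ran from 0 to 98. With quantile normalization, median centring, the mean of probe sets or the dim filter (11048 genes tested) it was 0. The medians ran from -0.18 to 0.21 for regulators and from -0.15 to 0.22 for structure genes over the same leave-outs. The regulators' median was 0.0964 under the block when the replicate 1 pair was left out. Without a single array, replicate 3 weighs unequally in the genotypes. Quantile normalization turned the sign of Tcf21 (-0.0173) and Myl4 (0.0039). The mean of probe sets moved Ckm from 0.20 to 0.0029, Ryr1 from 0.26 to 0.11 and Msc from 0.21 to 0.12. Of the 27 members with full values, Eya2, Acta1, Actc1 and Ckm kept their sign in all 9 leave-outs. The other 23 turned sign in at least 1 (Myf5 and Myf6 are not above background, so their signs have no meaning as changes), with these lowest and highest differences without a single array: Myf5 -0.21 to 0.31, Myod1 -0.29 to 0.65, Myog -0.45 to 0.59, Myf6 -0.26 to 0.28, Eya1 -0.24 to 0.57, Mef2a -0.73 to 0.47, Mef2d -0.27 to 0.47, Met -0.23 to 0.56, Itm2a -0.85 to 0.26, Dmrt2 -0.23 to 0.0555, Cdh15 -0.18 to 0.24, Msc -0.24 to 0.67, Tcf21 -0.33 to 0.25, Myl4 -0.097 to 0.04, Tnnt1 -0.54 to 0.64, Tnnt2 -0.44 to 0.0231, Tnnt3 -0.29 to 0.53, Tnnc1 -0.46 to 0.64, Tnnc2 -0.66 to 0.54, Tnni1 -0.17 to 0.21, Tnni2 -0.39 to 0.50, Chrng -0.31 to 0.12, Ryr1 -0.18 to 0.60. With the block and a pair left out, the sign turned for Myf5 (-0.018), Myf6 (-0.0225 and -0.0166), Mef2a (0.0055), Cdh15 (-0.0603), Tcf21 (-0.14), Myl4 (0.0139 and 0.0206), Tnni1 (-0.0656). The count of regulators above background was 15, 7 and 4 at the 90th, 95th and 99th percentile, and that of structure genes 16, 10 and 3. Under the replicate block with a pair left out, Itm2a ran from -0.31 to -0.24 and Ryr1 from 0.17 to 0.31, while Acta1 ran from 0.05 to 0.42.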
